A study of Oreochromis niloticus with 12 samples.

Results

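The genes described here carry signals from receptors at the cell surface into the cell: G protein subunits, their regulators, and the enzymes that make, read and remove second messengers. They were chosen by the symbols in the deposited tables, as families of G protein subunits, RGS proteins, receptor kinases, arrestins, adenylyl cyclases, phosphodiesterases, protein kinases A and C, phospholipases C, calmodulin kinases and CREB factors. In the brain 84 symbols matched, and 83 of them were among the 21743 genes that averaged 10 or more normalised reads. The remaining symbol, grk7, a receptor kinase of photoreceptors, held 5.18, 3.76 and 2.09 reads in dominant and 4.55, 4.16 and 1.01 in subordinate brains. In the pituitary 4 of the 714 genes of the deposited table matched. No arrestin was among the matched genes of either tissue. Only some phosphodiesterase families were in the rule, and of the phospholipases C only the beta, gamma, delta and epsilon forms. The routes described here are therefore not complete. Loci without a symbol in the tables are described separately.

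RNA of whole brain and of pituitary was sequenced from mature male Nile tilapia (Oreochromis niloticus, Lake Manzala strain), a cichlid whose males form hierarchies. Each tank had held 2 males and several females, and tissue was taken at day 14. The 4 groups were brain of dominant reproducing males, brain of subordinate non-reproducing males, and the pituitaries of either status, with 3 libraries each. The labels name no other treatment or genotype, and they do not say whether numbered samples came from separate tanks. The p-values therefore weigh a status difference against the spread of these samples within a status, which may not be a spread between tanks. Values are normalised reads, listed for dominant libraries 1, 2 and 3 and then subordinate libraries 1, 2 and 3. A difference is the dominant minus the subordinate mean of log2(value + 1), given ± its standard error (SE). P-values come from limma, a gene was called at a Benjamini-Hochberg adjusted p under 0.05 over all genes tested. Levels were not compared between genes, because no transcript lengths were used.

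A receptor that binds its hormone or transmitter exchanges the nucleotide on a G protein, which then separates into an alpha subunit and a beta-gamma pair. Alpha subunits of the s and i classes raise or lower adenylyl cyclase activity and so cyclic AMP, which protein kinase A reads and phosphodiesterases remove. The q class activates phospholipase C, whose products are diacylglycerol, the activator of protein kinase C, and inositol trisphosphate, which releases calcium for the calmodulin kinases. In neurons these routes shape excitability and synaptic strength, and in pituitary cells they link the releasing hormones of the hypothalamus to secretion.

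None of the 83 brain genes was called, with adjusted p-values between 0.932 and 0.998. Over all genes tested the share called was 0.0276%, which is 6 genes. Before adjustment 4 of the 83 genes had a p under 0.05 (4.82%), beside 5.17% of all genes. Of these 4, plcd1 was higher in dominant brains, and grk3, camk2b and gng2 were lower. The share of all genes at this p and higher was 3.1%, and the share lower was 2.07%. The 3 dominant libraries did not overlap the 3 subordinate ones for 7 of the 83 genes (8.43%), beside 10.8% of all genes. Dominant brains were higher for 2 of these 7, plcd1 and camk1d, and lower for 5, beside 5.46% and 5.33% of all genes. By the authors' deposited table, 5 of the 83 had an unadjusted p under 0.05, the same 4 genes and camkv, beside 4.58% of all genes. An exact permutation test of 3 against 3 libraries cannot give a p under 0.1.

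The size of the differences was small for most members. The median over the 83 was -0.02, beside -0.00 over all genes tested, and single members ranged from -0.58 for rgs11 to 1.17 for plcd1. The difference was below 0 for 48 members (57.8%), beside 51.2% of all genes. The 95% confidence interval lay wholly within 0.5 log2 units of 0, a change of less than 1.41-fold, for 60 members (72.3%, beside 54.3% of all genes). It lay within 1 log2 unit, a 2-fold change, for 77 members (92.8%, beside 79.7%). Of the 83 genes, 43 had a mean of at least 1000 reads and 7 had under 100. Their median was 1138 reads, beside 348 over all genes tested. The interval shares were not matched for read number, so they are not shown to be a trait of these families.

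**Figure D1:**
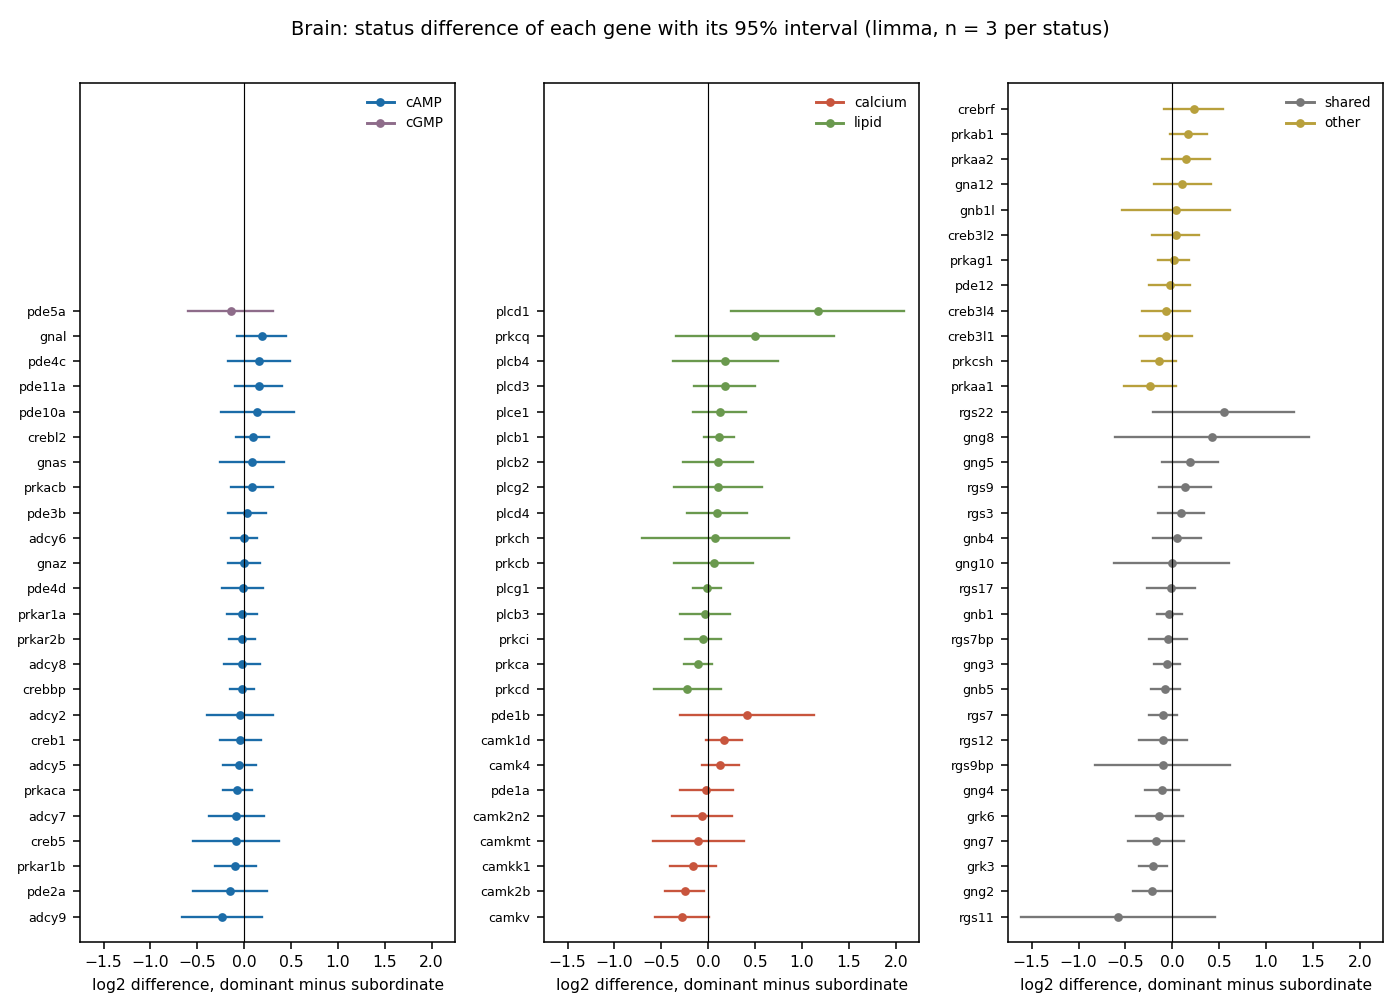
Difference between dominant and subordinate brains (log2, horizontal axis) for the 83 genes, with points for genes, bars for 95% confidence intervals and colours for the messenger class, where "shared" marks subunits and regulators that serve several messengers. Most intervals cross 0; the gene plcd1 stands farthest right, at 1.17, and rgs11 farthest left, at -0.58.

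Receptor kinases phosphorylate active receptors, which then bind arrestin and part from the G protein. Among all 83 genes the smallest p belonged to grk3, of the beta-adrenergic receptor kinase group. Its reads were 3052, 3125 and 3383 in dominant brains against 3670, 3564 and 3789 in subordinate brains, so that every dominant library lay below every subordinate one. The difference was -0.21 ± 0.06 (SE, limma adjusted p = 0.932). The related grk6 held 279, 331 and 341 reads against 345, 366 and 332, and its groups overlapped (difference -0.14 ± 0.11).

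The gamma subunits, which tether the beta-gamma pair to the membrane, numbered 7. Of these, gng2 stood at 2260, 2388 and 1974 reads in dominant and 2432, 2556 and 2668 in subordinate brains. Its groups did not overlap, with dominant brains lower by a difference of -0.21 ± 0.09 (adjusted p = 0.934). For the gamma subunit gng7, an abundant partner of striatal G proteins in mammals, the values were 6343, 7277 and 7515 against 6628, 8778 and 8600, with overlap. The difference for gng3, a neuronal gamma subunit, was -0.06 ± 0.06. The remaining 4 ran from -0.11 for gng4 to 0.42 for gng8, and 5 of the 7 were below 0 (71.4%, beside 51.2% of all genes). Among the beta subunits gnb1 varied little, from 10185 to 10781 reads over the 6 libraries, and its highest library was 1.06 times its lowest. The beta subunits gnb4 and gnb5 differed by 0.05 ± 0.11 and -0.07 ± 0.07.

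Alpha subunits with a symbol were few. The gene gnal encodes the s-class subunit of olfactory neurons and striatum, and it held 804, 702 and 830 reads against 595, 730 and 728, with overlap (0.19 ± 0.11, adjusted p = 0.934). The reads of gnas, the general s-class subunit, were 315, 318 and 306 against 237, 326 and 332. Subordinate brain 1 was the lowest of the 6 libraries for both genes. The i-class subunit gnaz differed by -0.00 ± 0.07, and gna12, an alpha subunit of another class, by 0.11 ± 0.13.

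RGS proteins speed the return of alpha subunits to the inactive state. Of 7 such genes, rgs7, which works in a pair with gnb5, did not overlap between groups, at 2966, 2663 and 2938 reads against 3098, 3017 and 3033. The difference was -0.10 ± 0.06 (adjusted p = 0.934). The widest spread was that of rgs11, of the same subfamily, with 240, 486 and 656 reads in dominant brains against 382, 838 and 796 in subordinate brains. The status groups overlapped, replicate 1 was lowest within either status, and the highest library was 3.5 times the lowest (difference -0.58 ± 0.44). Dominant brains 1, 2 and 3 held 124, 96 and 55.5 reads of rgs22, an RGS gene known from mammalian testis, and subordinate brains 71.0, 48.8 and 60.4 (0.55 ± 0.32). The membrane anchors rgs7bp and rgs9bp stood at -0.04 ± 0.08 and -0.10 ± 0.30.

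The 24 members classed with the cyclic AMP route, which lack some phosphodiesterase families, gave no gene at an unadjusted p under 0.05, beside 5.17% of all genes. None had groups without overlap, beside 10.8% of all genes. Their differences lay between -0.23 and 0.19 with a median of -0.02, and 16 were below 0 (66.7%, beside 51.2% of all genes). The sign of that median turned without dominant brain 1, dominant brain 2 or subordinate brain 2, to at most 0.0146, and with the hox level as a covariate it was 0.084. The 95% interval lay within 0.5 log2 units of 0 for 20 of them and within 1 unit for all 24. All 6 adenylyl cyclases with a symbol, the enzymes that make cyclic AMP, were below 0, with a median of -0.05, beside 51.2% of all genes below 0. Cyclase loci without a symbol went both ways, such as adcy1a at -0.28 with overlap and adcy6b at 0.28 without overlap. The farthest of the 6 was adcy9, with 3050, 3054 and 2982 reads in dominant and 2644, 3824 and 4468 in subordinate brains. Dominant brains were tightly grouped for adcy9, and the subordinate ones lay on both sides of them (difference -0.23 ± 0.18, adjusted p = 0.934). For the calcium-inhibited cyclase adcy6 the difference was -0.00 ± 0.06, with a 95% interval from -0.14 to 0.14.

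Protein kinase A is held inactive by regulatory subunits until cyclic AMP binds them. The 3 regulatory genes prkar1a, prkar1b and prkar2b differed by -0.02 ± 0.07, -0.10 ± 0.09 and -0.02 ± 0.06. The catalytic genes prkaca and prkacb differed by -0.07 ± 0.07 and 0.08 ± 0.09. Over these genes with a symbol, the ratio of summed regulatory to summed catalytic reads was 3.97 ± 0.271 in dominant and 4.003 ± 0.274 in subordinate brains (SD, n = 3). The means differed by less than the spread of either group. Loci without a symbol, such as those named prkar2aa and prkacbb, were not in this ratio. It depends on transcript lengths, so it was compared between statuses only. Among the phosphodiesterases of cyclic AMP, pde2a, which is switched on by cyclic GMP, held 6187, 7681 and 9449 reads against 8352, 9731 and 7521 and overlapped. The gene pde10a, known from striatal neurons in mammals, stood at 0.14 ± 0.16, and pde4c and pde4d at 0.16 ± 0.14 and -0.01 ± 0.09. The gene pde5a, the only member classed with cyclic GMP here, stood at -0.14 ± 0.19. Other phosphodiesterases of cyclic GMP, such as pde9a, are counted with the cyclic GMP route further on.

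The transcription factors of the CREB family switch on genes after phosphorylation by protein kinase A or calmodulin kinases. The gene creb1 held 1606, 1316 and 1351 reads in dominant and 1421, 1419 and 1547 in subordinate brains, with overlap (-0.04 ± 0.09). The CREB-related crebl2 stood at 0.09 ± 0.07. The coactivator crebbp ran from 1595 to 1674 reads over the 6 libraries, and its highest was 1.05 times its lowest.

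The calcium class, made by symbol, held 9 genes. The median difference was -0.07, and 6 were below 0 (66.7%, beside 51.2% of all genes). Those below 0 include camkmt (-0.10), taken in by its symbol alone, and the kinase inhibitor camk2n2, whose value is the median. Leaving out a library moved that median between -0.15 (without subordinate brain 1) and 0.00545 (without subordinate brain 2). The beta subunit gene of calmodulin kinase II, camk2b, which binds the kinase to actin at synapses, was the gene of smallest p among them. Dominant brains held 6601, 6680 and 7583 reads and subordinate brains 7720, 8102 and 8990. The groups did not overlap, although dominant brain 3 lay close to subordinate brain 1. The difference was -0.25 ± 0.09 (adjusted p = 0.934). The kinase-like synaptic vesicle protein camkv held 2629, 3136 and 3321 reads against 3184, 3743 and 4096 and overlapped (-0.28 ± 0.12, adjusted p = 0.934). For camk1d, a calmodulin kinase of the class I, dominant brains lay higher, at 2198, 2045 and 1959 reads against 1678, 1881 and 1959. The lowest dominant and the highest subordinate library of camk1d were less than 1 read apart (0.17 ± 0.08, adjusted p = 0.934). The nuclear kinase camk4 stood at 0.13 ± 0.08, the upstream kinase camkk1 at -0.16 ± 0.10, and the kinase inhibitor camk2n2 at -0.07 ± 0.14. Of the calmodulin-activated phosphodiesterases, pde1a differed by -0.02 ± 0.12 and pde1b, with 26.0 to 64.3 reads, by 0.42 ± 0.30.

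**Figure D2:**
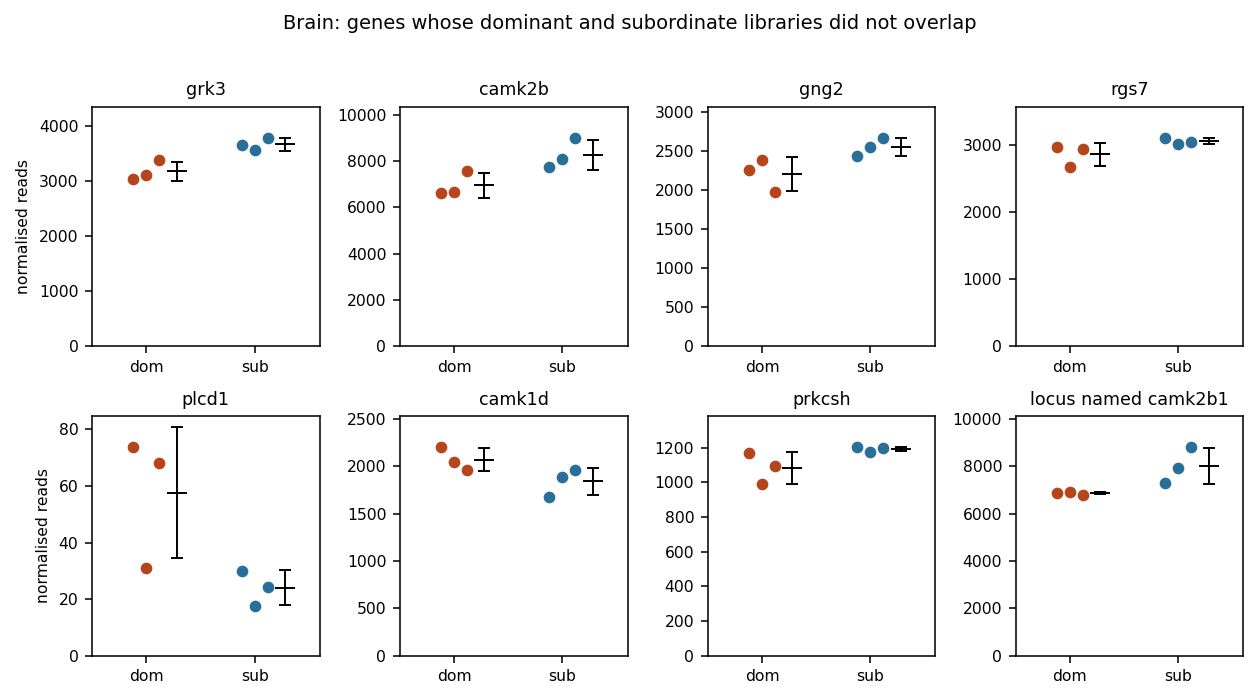
Normalised reads (vertical axes, from 0) in each brain library for the 7 genes whose groups did not overlap, and for the second camk2b locus, named camk2b1 by the reference. Points are libraries and bars are means ± SD (n = 3); plcd1 shows the widest ratio and the fewest reads, and camk1d nearly touches between groups.

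The lipid route, of phospholipases C and protein kinases C, held 16 genes with a median difference of 0.10. Of these, 5 were below 0 (31.2%, beside 51.2% of all genes). That median was 0.05 without dominant brain 3, 0.03 without subordinate brain 3 and 0.01 with the hox level as a covariate, described further on. The gene plcd1, a phospholipase C that calcium itself activates, held 73.6, 31.0 and 68.0 reads in dominant and 30.1, 17.7 and 24.1 in subordinate brains. Dominant brain 2 and subordinate brain 1 were less than 1 read apart. Before normalisation their read counts were equal, so scaling alone kept the groups from meeting. Dominant brains 1 and 3 lay far above the rest. The difference of 1.17 ± 0.39 (adjusted p = 0.934) had a 95% interval from 0.25 to 2.09. At this depth counting alone gives a coefficient of variation of 15.7%, and the libraries within a group varied by 33.8%. The other delta enzymes plcd3 and plcd4 differed by 0.17 ± 0.14 and 0.10 ± 0.13. Among the beta enzymes, which q-class subunits activate, plcb1 stood at 0.11 ± 0.07 and plcb3 at -0.04 ± 0.11.

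Protein kinases C split evenly, with 3 of 6 below 0. The classical prkca held 2228, 2315 and 2486 reads in dominant and 2556, 2571 and 2453 in subordinate brains (-0.11 ± 0.06, adjusted p = 0.934). For prkcb, also a classical form, the values were 6379, 6649 and 8842 against 7195, 8291 and 5570 (0.06 ± 0.18). The highest and the lowest prkcb libraries were dominant brain 3 and subordinate brain 3, and the sign turned without either of them, to -0.09 and -0.10. The delta form prkcd stood at -0.22 ± 0.15, and prkcq, with 33.2 to 93.3 reads, at 0.50 ± 0.35.

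The symbols also took in 12 genes that are not part of these routes or belong to another arm of them. Among them prkcsh, a subunit of the glucosidase II of the endoplasmic reticulum and not a protein kinase C, held 1171, 988 and 1095 reads against 1201, 1176 and 1198. Its groups did not overlap, dominant brains being lower (-0.14 ± 0.08, adjusted p = 0.934). The 4 subunits of AMP-activated kinase, a sensor of cell energy, went both ways. The catalytic prkaa1 differed by -0.24 ± 0.12 and prkaa2 by 0.15 ± 0.11, and the beta subunit prkab1 by 0.17 ± 0.08. The gene crebrf, a regulator of CREB3 proteins, stood at 0.23 ± 0.13. None of the 12 had an unadjusted p under 0.05, beside 5.17% of all genes.

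**Figure D3:**
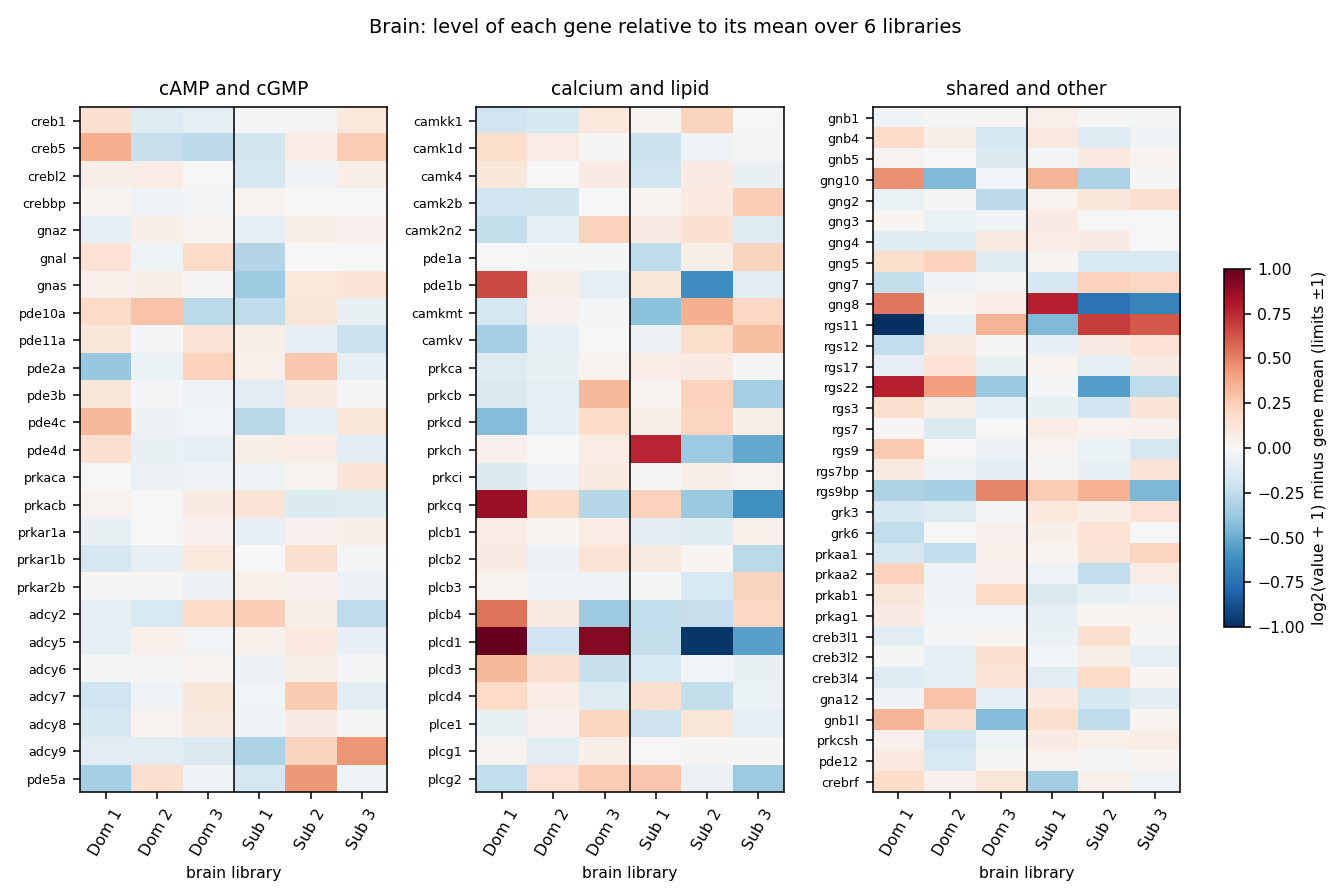
Log2 value of each of the 83 genes (rows) in the 6 brain libraries (columns), shown as the difference from that gene's mean over the libraries, with colours limited at 1 log2 unit either way. Rows of strong colour such as rgs11 change from library to library within a status, and rows such as gnb1 and crebbp stay pale.

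Libraries of the same status also differed from each other. Over the 83 genes the median SD within a status was 0.14 log2 units, beside 0.17 over all genes. The median size of the status difference was 0.10, beside 0.11 over all genes. Over the libraries of both statuses together, the highest was over 1.5 times the lowest for 21 of the 83 genes and over 2 times for 7. These ratios mix both kinds of difference, and their share over all genes was not counted. Dominant brain 1 was the highest library for 23 members (27.7%, beside 20.0% of all genes) and the lowest for 22 (26.5%, beside 21.6%). Markers of brain regions also differed between libraries. In bulk tissue a difference in how many cells of a type were present and a difference in RNA per cell cannot be told apart.

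The marker lists below were chosen with earlier results of these data known, so their shares beside all genes are a description only. Posterior hox genes, of paralog groups 5 and above, mark hindbrain and spinal cord, and 11 of them passed the filter. Some passed only through their dominant values, such as hoxb9 with means of 49.8 and 1.82 reads, which tilts the list towards dominant brains. These 11 summed to 1319, 1851 and 1058 reads in dominant and 806, 68.6 and 153 in subordinate brains. The sums did not overlap, and several hox genes, such as hoxc8, were at 0 in subordinate brains 2 and 3. Pallium markers went the other way, at 4121, 4843 and 5091 against 6344, 6750 and 7730 reads over the 5 of 8 listed genes that were found. Most of that sum came from eomesa and bhlhe22, at means of 2891 and 1900 reads. These genes and neurod6b did not overlap (60% of the 5, beside 10.8% of all genes), while emx1 and emx2 overlapped. Summed radial glia markers were 34413, 41596 and 36226 against 29153, 32202 and 33777 reads. Of those 4 genes gfap and fabp7a did not overlap (50%, beside 10.8% of all genes), with dominant brains higher, while slc1a3a overlapped and glula stood at -0.10. Myelin markers were above 0 in 7 of 7, with a median difference of 0.36, where 51.2% of all genes were below 0. Of these 7 markers, 3 had an unadjusted p under 0.05 (42.9%, beside 5.17% of all genes) and 4 did not overlap (57.1%, beside 10.8%). Their sum overlapped between groups, from 152892 to 171135 reads in dominant and from 98868 to 185643 in subordinate brains. Pituitary hormone genes were below 0 in 8 of 8, beside 51.2% of all genes, with a median of -0.59. Of these 8 genes, 1 had an unadjusted p under 0.05 (12.5%, beside 5.17% of all genes) and 3 did not overlap (37.5%, beside 10.8%). Their sum was 10362, 11980 and 15002 reads in dominant and 13856, 14469 and 29532 in subordinate brains, highest by far in subordinate brain 3. The libraries ordered by camk2b reads stood in the same order as by the summed pallium markers, dominant 1 lowest and subordinate 3 highest. That order was seen after the values were known, and the part of tissue make-up in the differences of grk3, camk2b, gng2 and plcd1 was not tested.

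The mean log2 level of the hox genes was 6.32 to 7.14 in dominant and 1.69 to 5.39 in subordinate brains. As a covariate it therefore shares much of the status contrast, and over 6 libraries they cannot be fully told apart. In that fit the differences were -0.21 for grk3, -0.11 for camk2b, -0.18 for gng2 and 0.80 for plcd1. None of these 4 had an unadjusted p under 0.05. The grk3 difference was -0.21 in both limma fits, while its unadjusted p was 0.0146 without and 0.153 with the covariate. A p lost or gained in that fit is therefore not by itself a result about the hox level. Then 7 other members had one (8.43%, beside 6.42% of all genes). In that fit camk1d, camk4, camkmt, crebrf, gnal and gnas were higher in dominant brains, and prkch was lower. Subordinate brain 1, whose hox level of 5.39 lay nearest the dominant ones, was the extreme library for all 7. It was the lowest library for the 6 higher genes and the highest for prkch, so these results lean on 1 library. None of the 7 was called. Without dominant brain 3 the members at this p numbered 11 (13.3%, beside 5.96% of all genes), and without subordinate brain 1 they numbered 10 (12%, beside 8.77%). Without dominant brain 1 they numbered 2 (2.41%, beside 3.89% of all genes), and without subordinate brain 3 also 2 (2.41%, beside 4.17%). With the replicate number as a block they numbered 5, beside 6.2% of all genes, and rgs11 and camkv stood among them in place of gng2.

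The q-class effector plcb4, a phospholipase C of cerebellar Purkinje cells and thalamus in mammals, varied more within a status than between them. Its reads were 8439, 6156 and 4495 in dominant and 4869, 4925 and 6658 in subordinate brains, with overlap (0.18 ± 0.24). Counting error was 1.3% of its mean and the spread within groups 25.6%. Dominant brains 1 and 2 and subordinate brain 3 were its 3 highest libraries. The same 3 libraries were highest for 3 of the 6 cerebellum markers reported here, zic1, zic4 and ca8, and not for cbln1, pvalb7 and barhl1a. The developmental factor zic1, for example, held 14359, 10750 and 5878 reads against 7563, 6641 and 12165. This likeness was picked out after the values were seen. Without dominant brain 1 the plcb4 difference was -0.04.

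**Figure D4:**
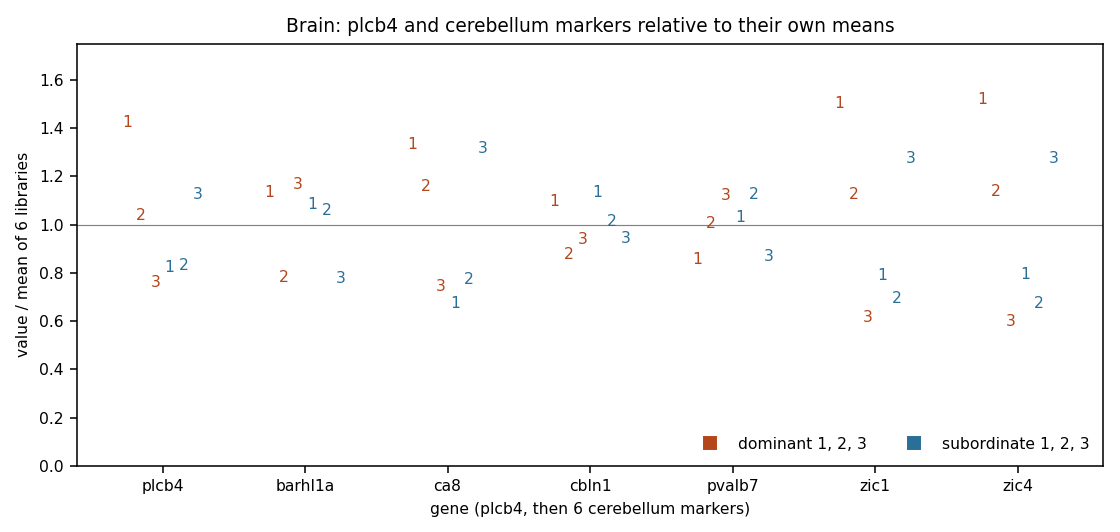
Reads of plcb4 and of 6 cerebellum markers in each brain library, divided by the gene's own mean over the 6 libraries (vertical axis, from 0); digits are replicate numbers and colours the status. Dominant 1 and 2 and subordinate 3 lie above the other libraries for plcb4, ca8, zic1 and zic4, and pvalb7 shows dominant 1 and subordinate 3 lowest.

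Many fish genes exist as a pair of loci, and 75 further brain loci without a symbol in the table have a family symbol in the RefSeq gene table. Of these, 66 passed the filter and none was called. Their median difference was -0.02, and 6 had an unadjusted p under 0.05 (9.09%, beside 5.17% of all genes), 3 higher and 3 lower (beside 3.1% and 2.07%). The smallest p was that of LOC100709052, named gna11b, a q-class alpha subunit, with 1317, 1269 and 1124 reads in dominant and 1576, 1439 and 1563 in subordinate brains. Dominant brains were lower without overlap (-0.31 ± 0.08, adjusted p = 0.855). The locus LOC100695100, named camk2b1, held 6872, 6922 and 6812 reads against 7298, 7915 and 8802 and did not overlap either (-0.22 ± 0.08, adjusted p = 0.934). Whether camk2b and camk2b1 share reads was not tested. Second loci of other calcium members went the other way from them. The locus named camk1db stood at -0.23, where camk1d was at 0.17, and camkvl at 0.09, where camkv was at -0.28. On the higher side stood LOC100698985, named gng12a, at 902, 903 and 905 reads against 834, 783 and 783. The cyclase LOC100702460, named adcy6b, held 976, 952 and 977 reads against 920, 719 and 773 (0.28 ± 0.10), where adcy6 itself differed by -0.00. Over 18 pairs of a member and a second locus of like name, both differences had the same sign in 6.

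Other genes of these routes were taken from 12 lists with 118 loci that passed the filter. These lists too were chosen with earlier results of these data known, so their shares are a description. None was called, 9 had an unadjusted p under 0.05 (7.63%, beside 5.17% of all genes), 2 higher and 7 lower (beside 3.1% and 2.07% of all genes). Groups without overlap were found for 15 (12.7%, beside 10.8% of all genes), and the median difference was -0.04. Calcium pumps, which clear calcium from the cytoplasm, were below 0 in 7 of 7, beside 51.2% of all genes. Of these pumps 1 had an unadjusted p under 0.05 (14.3%, beside 5.17% of all genes). That was LOC100701831, named atp2a2a, of the endoplasmic reticulum, with 3677, 4164 and 4234 reads against 4884, 4983 and 5028 (-0.31 ± 0.07, adjusted p = 0.828). Of 8 genes listed for calcineurin, the calmodulin-dependent phosphatase, 75% were below 0, beside 51.2% of all genes. These were all 6 loci of its subunits, and its regulators rcan1 and rcan3 stood at 0.03 and 0.00534. An unadjusted p under 0.05 was found for 2 subunit loci, 25% of the list beside 5.17% of all genes. They were LOC100705072, named ppp3cca (2092, 2443 and 2505 against 2626, 3182 and 3255 reads), and LOC100697276, named ppp3cb (8519, 9054 and 10209 against 10472, 11455 and 10946).

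Of 19 genes listed for the cyclic GMP route, 15 were below 0 (78.9%, beside 51.2% of all genes). The list takes in pde6 genes, of a phosphodiesterase family known from photoreceptors. Of these, pde6b, pde6d, pde6g and pde6hb were below 0, and pde6a and pde6c above. Some genes of the list had few reads, such as pde6hb and pde9a, both below 0, at means of 18.4 and 15.9. The gene pde6a, above 0, averaged 24.3. An unadjusted p under 0.05 was found for 2 (10.5%, beside 5.17% of all genes). The natriuretic peptide clearance receptor npr3 held 327, 438 and 350 reads in dominant and 530, 492 and 514 in subordinate brains (-0.47 ± 0.12, adjusted p = 0.855). The kinase prkg2 held 266, 325 and 361 against 402, 421 and 441 (-0.42 ± 0.12, adjusted p = 0.902). Phosphoinositide kinases, 21 in all, had 2 on either side at this p (19% together, beside 5.17% of all genes). Of these, pip5kl1 (0.55 ± 0.16) and pip5k1c (0.17 ± 0.05) were higher in dominant brains. The other 8 lists held 2 to 14 genes each. They were those of A-kinase anchors, calmodulin, inositol trisphosphate and ryanodine receptors, and diacylglycerol kinases. Epac and gated channels, CREB coactivators, protein kinase A inhibitors and calcium sensors made up the rest. These lists had 0 genes at an unadjusted p under 0.05, beside 5.17% of all genes, and limma called 0, beside 0.0276%.

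The pituitary table lists 714 genes, each with a p under 0.05 in the authors' deposited table, so members there were bound to differ between groups and their number supports nothing. In the limma fit over these 714 genes 6 were called (0.84%), and the groups did not overlap for 66.0%. None of the 4 members was called. Over genes already selected by p, the adjusted p-values of this fit are a description and not a test. The receptor kinase grk6 stood at 179, 214 and 223 reads in dominant and 149, 155 and 151 in subordinate pituitaries, without overlap (0.43 ± 0.17, adjusted p = 0.0855). The kinase prkcb held 285, 283 and 329 against 256, 197 and 221, also without overlap (0.42 ± 0.17, adjusted p = 0.0855). For rgs3, a regulator of i- and q-class subunits, the values were 773, 1040 and 730 against 439, 746 and 327 (0.82 ± 0.32, adjusted p = 0.0855). Subordinate pituitary 2 lay above dominant pituitary 3 for rgs3.

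The phospholipase plcb4 was the single member lower in dominant pituitaries, at 1532, 1212 and 1442 reads against 1799, 1652 and 4309. The groups did not overlap, and subordinate pituitary 3 stood far above the other 5 libraries (-0.75 ± 0.36, adjusted p = 0.0947). Without that library the difference was -0.31. The hormone genes in the table differed in which library was highest. For growth hormone, gh1, that was subordinate pituitary 3, as for plcb4. The gh1 values were 1031202, 1855575 and 1323370 reads in dominant and 1252854, 3063158 and 5513556 in subordinate pituitaries. For the gonadotropin genes fshb, lhb and cga it was dominant pituitary 2, and subordinate pituitary 3 was the lowest for fshb, at 11662 reads. The part of this library's make-up in the plcb4 difference was not tested. The pineal and retina marker tph1, which is not a pituitary hormone gene, held 672, 1802 and 892 against 89.7, 54.9 and 401 reads, and its part in the results was not tested. In the authors' deposited table the log2 fold changes were 0.442 for grk6, 0.412 for prkcb, 0.752 for rgs3 and -0.891 for plcb4, with unadjusted p-values of 0.0296, 0.0344, 0.0173 and 0.0117.

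In the brain, which was normalised separately from the pituitary, all 4 overlapped between groups. Their brain differences were -0.14 ± 0.11 for grk6, 0.06 ± 0.18 for prkcb, 0.09 ± 0.10 for rgs3 and 0.18 ± 0.24 for plcb4. The difference between tissues was not tested, because the pituitary genes had been selected by their difference.

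**Figure D5:**
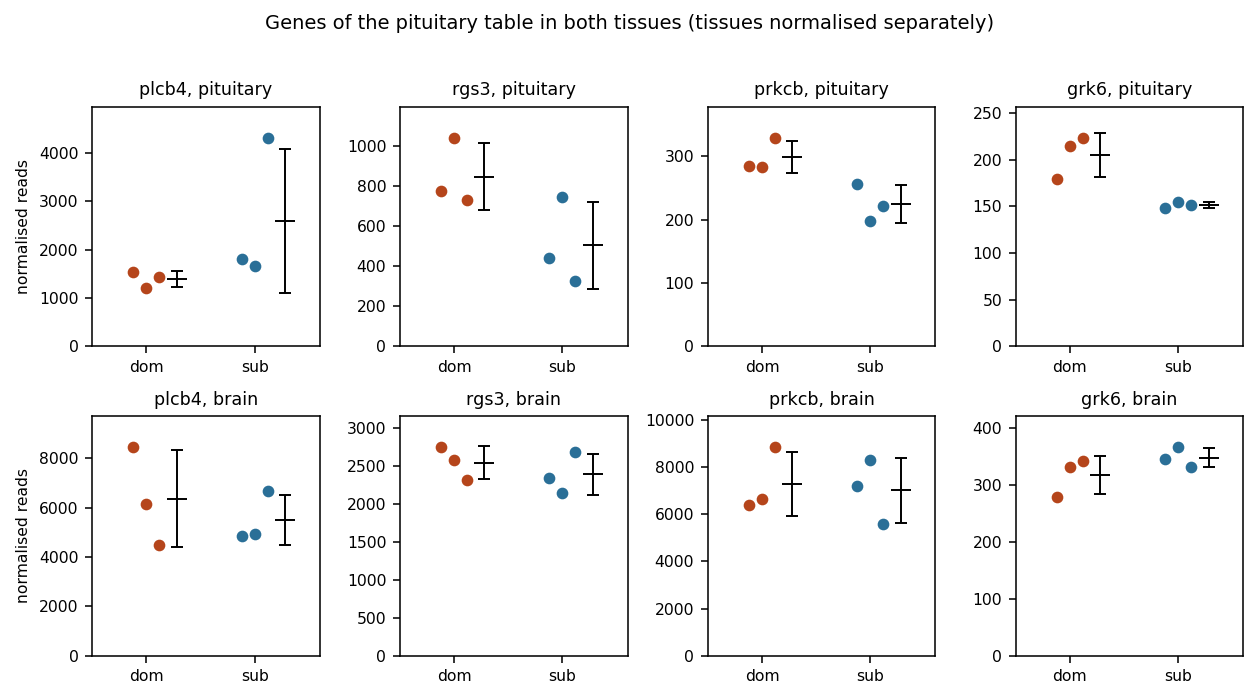
Normalised reads of grk6, prkcb, rgs3 and plcb4 in each pituitary and brain library (vertical axes, from 0), with points for libraries and bars for means ± SD (n = 3). In the pituitary plcb4 of subordinate 3, at 4309, lies far above the other libraries; in the brain the status groups overlap for all 4 genes.

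Of the pituitary loci without a symbol in the table, 2 with a family symbol in the RefSeq gene table are given here. In this selected table both stood higher in dominant pituitaries, without overlap, beside 66.0% of the 714 genes without overlap. The share of the 714 genes higher in dominant pituitaries was not counted. The RGS locus LOC100709782, named rgs6, held 58.9, 76.1 and 67.9 against 46.7, 34.9 and 39.2 (0.74 ± 0.31). The calmodulin kinase II locus LOC100698346, named camk2d2, held 101, 70.8 and 109 against 68.8, 59.9 and 54.1 (0.60 ± 0.28). The adjusted p-values of these loci were 0.0855 and 0.0912. Their brain differences were -0.02 ± 0.10 and -0.05 ± 0.06, and the brain groups overlapped for both.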

How the data were processed

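Whole brains and pituitaries of 2 statuses were sequenced, with 3 libraries per group taken from the tissue and status labels. Per the labels' protocols, a miRNeasy kit was used for total RNA and a TruSeq v2 kit for the libraries. The tools named, per the submitters' processing notes, are STAR 2.201, HTSeq, Trim Galore, FastQC 0.11.4, DESeq and DESeq2. The build, annotation, strand setting and handling of multi-mapping reads were not given in the sources used here. The deposited signal values are normalised read counts per the file headers. Also per the file headers, the authors deposited log2 fold changes with unadjusted p-values. In the brain 100% of values were whole multiples of a step (tolerance 0.01 reads). This gave 23733115 to 26867631 recovered reads per library and size factors of 0.956 to 1.10, and the counts set the precision of each value. The pituitary table lists 714 genes, each past the authors' p-value threshold of 0.05 (highest 0.0499), so the depth of its libraries is unknown. After 251 blank lines were dropped, the brain table held 27115 genes. There were 0 unused columns.

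Each tissue was fitted separately, two-sided, with limma 3.58.1 (R 4.3.3, eBayes with a mean trend, pseudocount 1) over genes averaging at least 10 reads. On this scale fold changes of genes with few reads come out too small. The fit was tested on simulated data. Alternatives were pseudocounts 0.5 and 5, no filter or a mean of at least 50, TMM, robust eBayes, a replicate block, each library left out, a hox covariate, and edgeR 4.0.16 and DESeq2 1.42.0 on the recovered brain counts. Genes named were all pituitary members, up to 12 per direction of smallest brain p, the 2 of most reads per role, and up to 2 per pathway list. Some genes outside this rule are also named, such as rgs11, gng8, gnb5, plcb3, prkar2b and prkch. LOC loci were named from RefSeq genes of assembly O_niloticus_UMD_NMBU, for names alone. Members and lists were chosen with earlier results of these data known, and no list test was run. Results of a few loci are not reported here. Figures were drawn with matplotlib 3.10.9.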

Additional observations from a re-analysis of the deposited data

How the results depend on the processing

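The 83 brain members had 0 calls under every alternative run (lowest adjusted p 0.292), and the number at an unadjusted p under 0.05, 4, was 5 with DESeq2, 3 with edgeR and 7 with the hox covariate. It ran from 2 to 11 when each library was left out. Over all brain genes the 6 calls became 88 with DESeq2 and 0 with the hox covariate, where 1395 genes had an unadjusted p under 0.05 (1124 in the limma fit without it, 1094 with edgeR, 1002 with DESeq2), and ran from 1 to 15 with a library left out. The 6 pituitary calls ran from 0 (without dominant 3) to 255 (without subordinate 1). The cause was not tested. The median difference of the 83 members ran from -0.0183 to 0.00437 with a library left out and was 0.00674 with the hox covariate. Of 69 differences of genes named by the rule given above, none called, 36 changed sign under at least 1 alternative, most of them in genes named for their read number. Genes named outside that rule, such as rgs11, are not in this count. Among those named for a small p or for the pituitary, the hox covariate turned the sign of camkk1 (to 0.00765), gng5 (-0.054), gng7 (0.207), pde1b (-0.162), prkcq (-0.19) and rgs22 (-0.0042). Among these same genes, leaving out a library turned 2 signs in the brain. There plcb4 ran from -0.044 (without dominant 1) to 0.41 (without dominant 3), and prkcb from -0.099 (without subordinate 3) to 0.188 (without subordinate 2), with -0.089 without dominant 3. With the replicate number as a block, 1 brain gene, 6 pituitary genes and 0 members were called. Same-numbered libraries deviated with correlations of 0.09, -0.03 and -0.02 in the brain and 0.15, 0.08 and -0.05 in the pituitary, so the numbers are not shown to pair the samples. A count test of the pituitary values by edgeR or DESeq2 was not run. Depth limits plcd1, pde1b, prkcq, rgs22 and gng8, with under 100 reads on average.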
